A study of Mus musculus with 7 samples.

Results

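The collagen genes of mouse were followed in sorted medullary thymic epithelial cells (mTECs) with and without Cre. They were taken as every protein-coding gene of the table whose symbol is Col, a number, the letter a and a number, leaving out Col17a1. This rule on symbols found 43 genes among the 55536 in the table. RNA was measured in mTECs sorted fresh from thymus as EPCAM-positive cells and lysed in a buffer of the SMART-seq chemistry, which copies full-length transcripts. All 7 libraries carried Ikzf1fl/fl, an allele that Cre can cut in the gene of the transcription factor Ikaros, and all were Pou2f3-/-, without the transcription factor that tuft cells require. The groups were Cre(-) Ikzf1fl/fl Pou2f3-/- (n = 4, libraries 46, 48, 75 and 77) and Cre(+) Ikzf1fl/fl Pou2f3-/- (n = 3, libraries 45, 76 and 80), called Cre-negative and Cre-positive here. The sources used here give neither the cells that the Cre acts in, nor the floxed exon, nor the age and sex of the mice. Nor do they tell whether each library number stands for its own mouse, and p-values here therefore measure only the spread between libraries, which may be technical.

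Collagens are built from alpha chains wound around each other into a helix, some from copies of the same chain and others from chains of different genes. Fibrillar collagens form the fibers of skin, bone and cartilage, type IV collagen forms the network of basement membranes, and other classes bind to fibrils, form beaded filaments or span the cell membrane. mTECs are known for showing developing T cells the proteins of other tissues, in part through the regulator Aire and in part through small mTEC subsets that resemble cells of those tissues.

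The sequences just upstream of 4 genes are shown because these genes carried the extremes of the comparison described next. Col10a1 had the largest fall, Col3a1 the largest fall among fibrillar genes, and Col6a3 and Col6a5 are chains of 1 collagen type that moved in opposite directions. Each is the 150 bases before the annotated start, 5′ to 3′ on the strand of the gene, from RefSeq on GRCm38.p6. The Col10a1 window is chr10:34389831-34389980 on the plus strand and the Col3a1 window chr1:45311388-45311537 on the plus strand. The Col6a3 window is chr1:90843972-90844121 on the minus strand and the Col6a5 window chr9:105960644-105960793 on the minus strand. Capitals mark matches to the motifs named after them.
Col10a1: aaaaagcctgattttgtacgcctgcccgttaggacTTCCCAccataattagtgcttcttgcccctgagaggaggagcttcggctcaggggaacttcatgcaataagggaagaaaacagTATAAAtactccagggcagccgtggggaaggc
Col3a1: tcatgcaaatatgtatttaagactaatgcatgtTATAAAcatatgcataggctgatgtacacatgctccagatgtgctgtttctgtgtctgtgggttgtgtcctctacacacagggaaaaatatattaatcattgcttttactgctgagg
Col6a3: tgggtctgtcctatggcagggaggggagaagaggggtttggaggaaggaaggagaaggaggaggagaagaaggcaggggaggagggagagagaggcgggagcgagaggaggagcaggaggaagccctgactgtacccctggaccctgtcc
Col6a5: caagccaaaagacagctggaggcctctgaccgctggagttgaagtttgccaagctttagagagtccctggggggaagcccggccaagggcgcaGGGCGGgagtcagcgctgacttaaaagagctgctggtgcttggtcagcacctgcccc

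Motifs were searched on both strands in the 250 bases before each start, for the 34 collagen genes that matched an entry by symbol, and matches of different motifs were allowed to overlap. The TATA box was searched as TATAAA. It stood in 12.4% of the 32851 windows of all genes and in a window of 4 of the 34 collagen genes. The core that Ikaros binds was searched as TGGGAA, and it stood in 21.6% of all windows and in those of 11 collagen genes. Of these 11, Col10a1 and Col20a1 fell, Col6a4 rose and the other 8 did not pass the test. The GC box was searched as GGGCGG and stood in 32.7% of all windows and in those of 21 collagen genes. The letters CCAAT stood in 33.9% of all windows and in those of 12 collagen genes. A Runx motif, AACCACA, stood in 4.40% of all windows and in none of the collagen genes. In the sequences shown, the capitals of Col10a1 mark the Ikaros core on the other strand at base -115 and the TATA box at base -32. Those of Col3a1 mark a TATA box at base -117 and those of Col6a5 a GC box at base -57, and the Col6a3 stretch held none of the 5 motifs. These are matches of letters and say nothing about binding.

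In Cre-positive mTECs, RNA of 7 of 11 fibrillar collagen genes was lower, and RNA of 1 type IV, 2 type VI and 3 fibril-associated genes was higher. Of the 43 collagen genes, 17 changed (were called) at an adjusted p below 0.05 (limma on log2 of the normalized count plus 1, adjusted over all 22878 genes with a mean of at least 5), 11 lower and 6 higher in Cre-positive. Of all genes tested, 13.8% changed, 9.11% lower and 4.66% higher. Among protein-coding genes alone the shares were 10.3% lower and 5.28% higher. The median log2 fold change, Cre-positive over Cre-negative, was -0.97 over the collagen genes and -0.10 over all genes tested. Without Cre-positive 76 the number called higher was 3, and without Cre-positive 80 it was 2, while the number called lower stayed at 10 or 11 whichever library was left out. All 43 collagen genes passed the filter on low values, 30 of them with a log2 fold change below 0 and 13 above. The groups did not overlap in 13 genes lower and 8 higher, against 14.5% and 10.8% of all genes tested (25.3% in either direction). In bulk RNA, fewer cells of a type and less RNA per cell cannot be told apart.

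Summed over all 43 genes, the groups did not separate. In normalized counts, the Cre-negative libraries (46, 48, 75 and 77) summed to 7617, 7370.4, 7074 and 7774, and the Cre-positive libraries (45, 76 and 80) to 7815, 8509.9 and 7634. Over the 11 fibrillar genes, the sum ran from 1917 to 2303 in Cre-negative and from 489 to 900.3 in Cre-positive. Over the 6 type IV genes it ran from 1665 to 1877 and from 3059 to 3154, and over the 6 type VI genes from 823.5 to 1145 and from 1659.8 to 2126. The 9 fibril-associated genes summed to 1538 to 2132 and 1578 to 2030.3, with overlap. Sums weigh the most abundant genes most: Col4a1 makes up most of the type IV sum.

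**Figure D1:**
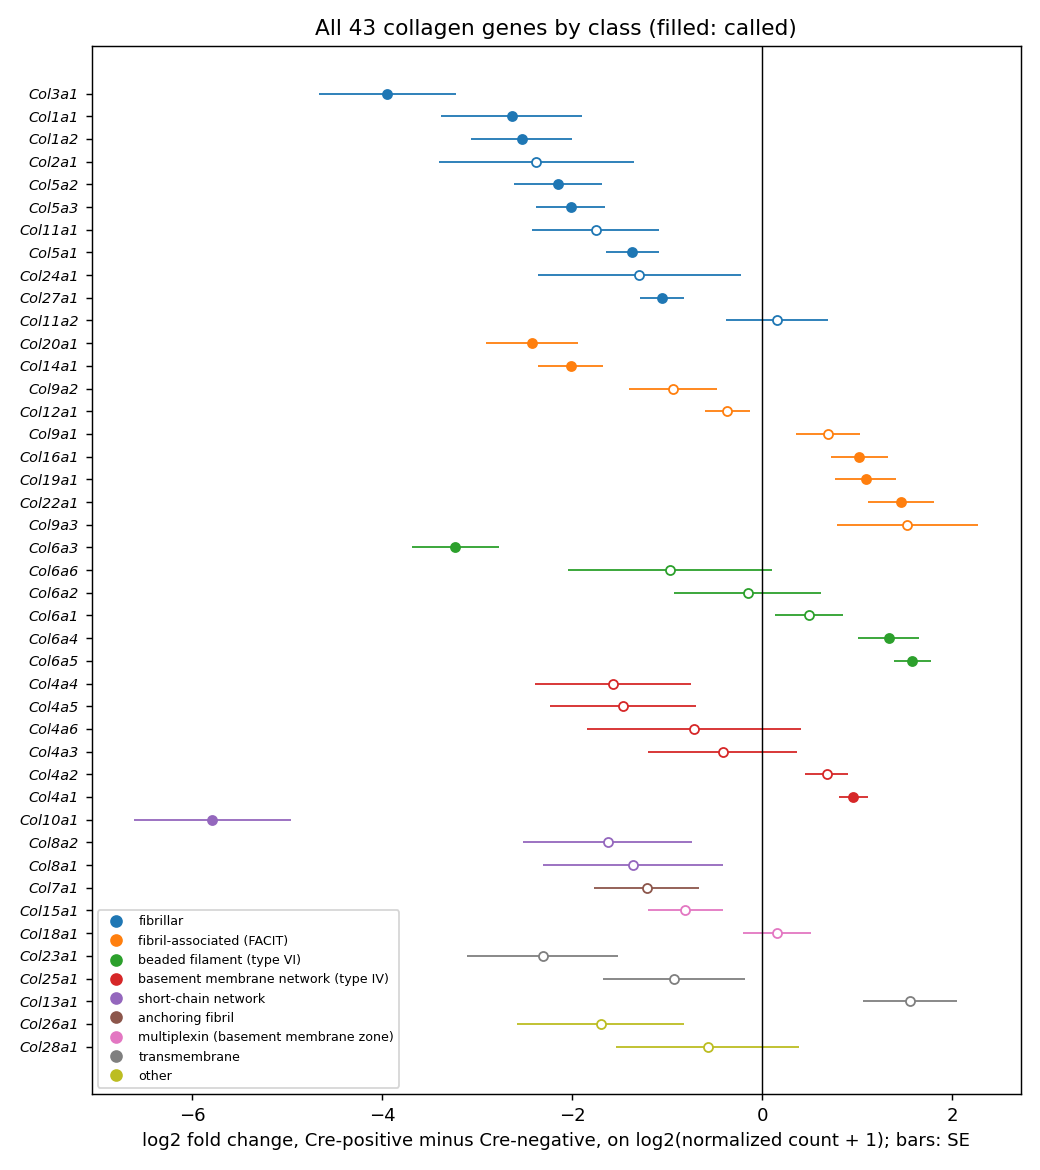
Log2 fold change of each of the 43 collagen genes, Cre-positive minus Cre-negative, on the scale of log2(normalized count + 1), with bars for the standard error (4 against 3 libraries). Colors mark the class and filled points the 17 genes that changed: 7 of 11 fibrillar genes are filled and lie left of 0, and filled points of the type IV, type VI and fibril-associated classes lie to the right except Col6a3, Col14a1 and Col20a1.

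Of the 11 fibrillar genes, 7 fell, none rose and 4 did not pass the test, with a median log2 fold change of -2.01. Over all genes tested, 9.11% fell and 4.66% rose. None of the 11 rose at an unadjusted p under 0.05 either, by limma, edgeR or DESeq2. Library values are given throughout as normalized counts, in the order Cre-negative 46, 48, 75 and 77, then Cre-positive 45, 76 and 80. Col3a1, the chain of type III collagen of skin and vessel walls, read 131, 101.5, 49.5 and 156 in Cre-negative and 1, 13 and 9.3 in Cre-positive. Its log2 fold change of -3.94 ± 0.72 (SE) had a limma adjusted p of 0.00350, and every Cre-positive library lay below every Cre-negative one. The chains of type I collagen, the main collagen of bone and tendon, were also lower. Col1a2 read 94.7, 123, 101 and 115 against 7.3, 38.1 and 19.7, a fall without overlap (log2 fold change -2.53 ± 0.53, limma adjusted p = 0.00787). Col1a1 read 184, 347, 162 and 347 against 35.5, 182 and 8.3. Here the groups overlapped, since Cre-positive 76 was above Cre-negative 75. The log2 fold change of Col1a1 was -2.63 ± 0.74 with a limma adjusted p of 0.0330. That call was lost in 8 of 17 alternatives, among them edgeR (adjusted p = 0.143) and DESeq2 (adjusted p = 0.209) on the recovered reads. Omitting Cre-negative 46, 48 or 77, or Cre-positive 45 or 80, also ended it (adjusted p = 0.0628 to 0.0972). Leaving out single libraries moved the log2 fold change between -3.74 (without Cre-positive 76) and -1.59 (without Cre-positive 80).

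Type V chains join type I fibrils and limit their width, and all 3 of their genes fell. Col5a1 read 268, 284, 231.5 and 257 against 105.5, 124 and 76.8 (log2 fold change -1.36 ± 0.27, limma adjusted p = 0.00607). Col5a2 read 467, 288, 351 and 622 against 214, 91.1 and 40.5 (-2.15 ± 0.46, limma adjusted p = 0.00871). Col5a3 read 172, 165.5, 121 and 183 against 42.8, 49.1 and 27 (-2.01 ± 0.36, limma adjusted p = 0.00329). In none of the 3 did the groups overlap. Col27a1, a fibrillar chain of cartilage, read 591, 793, 709 and 517 against 389.8, 313 and 245 and fell with a log2 fold change of -1.05 ± 0.23 (limma adjusted p = 0.0103).

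Col2a1, the main fibrillar chain of cartilage, is a case in which leaving out 1 library changed the limma call. It read 88, 68.9, 97.3 and 3.1 in Cre-negative and 5.2, 13 and 4.2 in Cre-positive, so Cre-negative 77 was below all 3 Cre-positive libraries. The log2 fold change was -2.38 ± 1.03 with a limma adjusted p of 0.147. Without Cre-negative 77 it was -3.47 with an adjusted p of 0.00922, and DESeq2 on all 7 libraries gave an adjusted p of 0.00453. The other 3 fibrillar genes that did not pass were Col11a1 (36, 31.5, 17.1 and 36.2 against 4.2, 11 and 10.4, limma adjusted p = 0.103), Col24a1 (adjusted p = 0.467) and Col11a2 (adjusted p = 0.885). Col11a1 showed no overlap between the groups and passed with DESeq2 alone (adjusted p = 0.0398). Col11a2 was the fibrillar gene with a log2 fold change above 0, at 0.16.

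Col10a1 had the largest fold change of the collagen genes and left almost no reads in the Cre-positive libraries. It encodes the chain of type X collagen, a short network-forming collagen of hypertrophic chondrocytes, and lies on chr10:34389981-34397085 (GRCm38). The libraries read 191, 488, 48.6 and 113 in Cre-negative and 0, 3 and 4.2 in Cre-positive. These rest on 886 reads in Cre-negative and 7 in Cre-positive, a ratio of group means of 87.5. The log2 fold change was -5.79 ± 0.83 (limma adjusted p = 7.87e-04). This fitted value moved with the processing, between -6.46 and -4.46 over the alternatives, and the call was lost with limma-voom alone (adjusted p = 0.110). The Cre-negative libraries differed among themselves by 10.0 times. Col10a1 lies inside Nt5dc1 on the opposite strand, and the sources used here do not tell whether counting used strand. Nt5dc1 itself read 293, 432, 399.1 and 203 against 305, 360.5 and 235 (log2 fold change -0.11, limma adjusted p = 0.852). The related network chains Col8a1 (-1.36, limma adjusted p = 0.380) and Col8a2 (-1.62, limma adjusted p = 0.256) did not pass, and Col8a1 ran from 7.2 to 189 within Cre-negative.

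**Figure D2:**
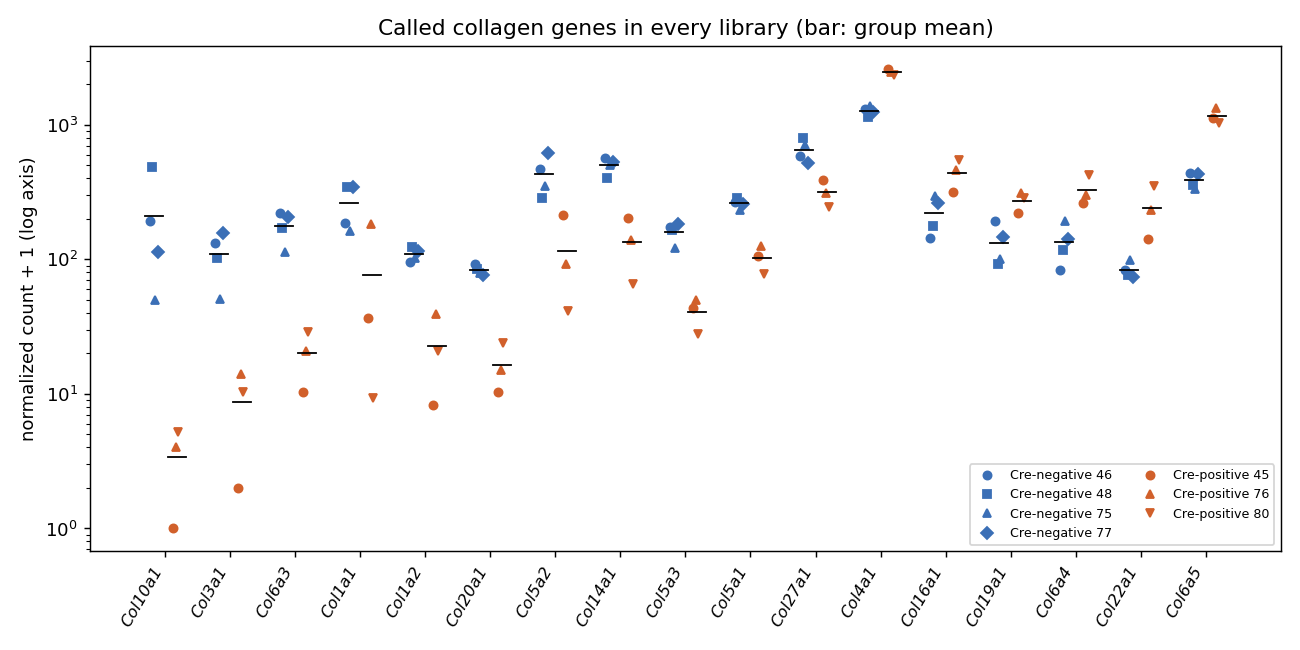
Normalized count plus 1 (log axis) of the 17 collagen genes that changed, 1 point per library and a bar at each group mean, ordered from the largest fall to the largest rise. Cre-negative libraries (blue, n = 4) and Cre-positive libraries (orange, n = 3) overlap in Col1a1 alone, and Col10a1 reaches 0 in Cre-positive 45.

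In type IV collagen, the network of basement membranes, 1 of 6 genes rose and none fell, against 4.66% and 9.11% of all genes tested. None of the 6 fell at an unadjusted p under 0.05 by limma, edgeR or DESeq2. Col4a1 encodes a chain found in nearly all basement membranes, on chr8:11198423-11312826 (GRCm38). It read 1315, 1150.5, 1384 and 1241 in Cre-negative and 2607, 2460.5 and 2359.5 in Cre-positive. Both groups were narrow and far apart, with a log2 fold change of 0.96 ± 0.15 (limma adjusted p = 0.00143). Its partner Col4a2 read 324, 272, 367 and 393 against 427, 572 and 637. The groups of Col4a2 did not overlap either, but its log2 fold change of 0.68 ± 0.23 had a limma adjusted p of 0.0663, and DESeq2 gave 0.0335. Both genes start head to head and share 22 bases at their starts.

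The other 4 type IV chains belong to specialised membranes such as those of kidney, and they were read far less. Col4a3 read 51.1, 14.8, 19.8 and 6.2 against 7.3, 17 and 17.6, and Col4a4 15.9, 27.6, 25.2 and 47.6 against 2.1, 8 and 29.1. Col4a6 read 6.7, 5.9, 6.3 and 33.1 against 0, 26 and 9.3. All 3 overlapped between the groups, with limma adjusted p values of 0.778, 0.232 and 0.727. Col4a5 read 98, 194, 75.7 and 65.1 against 109.7, 58.1 and 6.2 (log2 fold change -1.46, limma adjusted p = 0.234). Without Cre-positive 80, the lowest library, the log2 fold change of Col4a5 was -0.298. Its highest value was in Cre-negative 48.

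Type VI collagen forms beaded filaments next to basement membranes, and its chains went in opposite directions. Col6a3, with Col6a1 and Col6a2 a chain of the common filament, read 219.6, 171, 113.5 and 206 against 9.4, 20 and 28. It fell with a log2 fold change of -3.23 ± 0.46 (limma adjusted p = 7.65e-04). Col6a1 read 111.5, 121, 222 and 245 against 275, 296 and 155, and Col6a2 28.5, 48.3, 183 and 96.2 against 116, 146 and 14.5. Neither passed the test, with log2 fold changes of 0.50 (limma adjusted p = 0.396) and -0.15 (limma adjusted p = 0.926). Col6a2 varied more within each group than between them.

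Col6a4, Col6a5 and Col6a6 encode chains related to Col6a3 and lie side by side on chromosome 9, and 2 of them rose. Col6a5 read 437, 356, 333 and 434 in Cre-negative and 1134, 1335 and 1029 in Cre-positive, with no overlap (log2 fold change 1.58 ± 0.20, limma adjusted p = 3.10e-04). Col6a4 read 83, 116, 193 and 142 against 260.2, 301 and 427 (1.33 ± 0.32, limma adjusted p = 0.0169). The call of Col6a4 was lost without Cre-positive 80 (adjusted p = 0.0690) and with a covariate for Y-linked reads (adjusted p = 0.0633). Col6a6, the neighbour on the other side of Col6a5, was read at 6.3 to 22.7 and 0 to 27 (log2 fold change -0.97, limma adjusted p = 0.603).

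**Figure D3:**
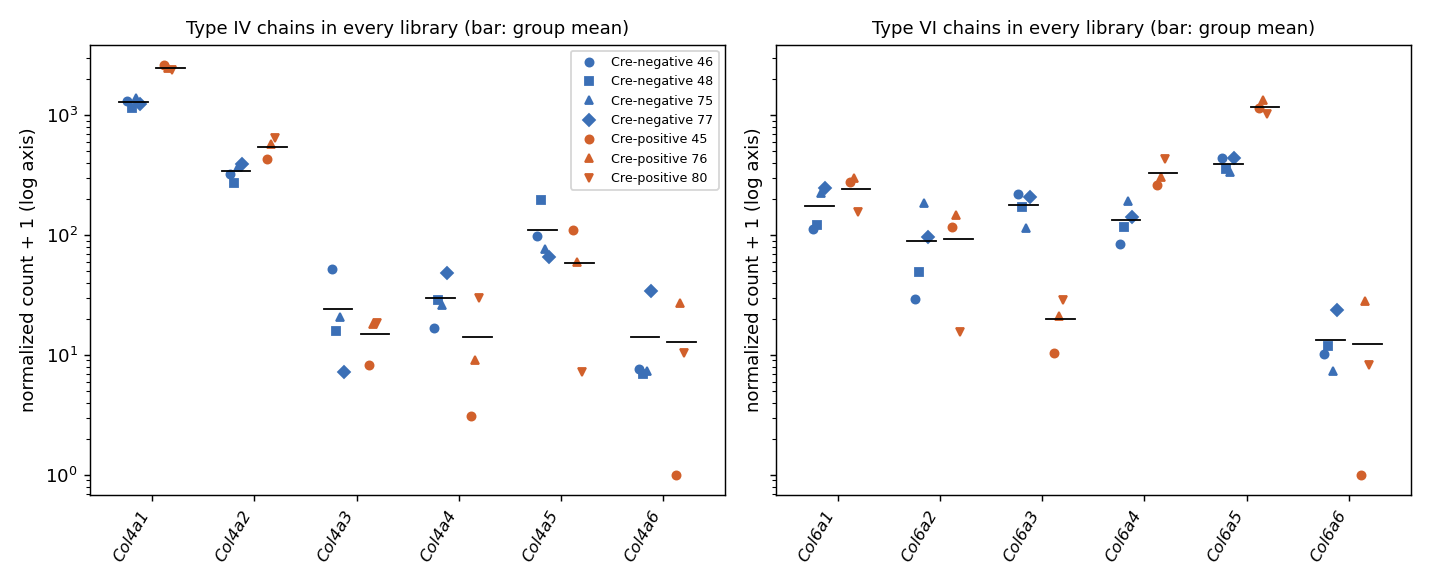
Normalized count plus 1 (log axis) of the 6 type IV genes (left) and the 6 type VI genes (right) in every library, with a bar at each group mean (4 Cre-negative, blue, and 3 Cre-positive, orange). Col4a1, Col4a2, Col6a4 and Col6a5 lie higher in every Cre-positive library, Col6a3 lower in every one, and the other 7 genes overlap.

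Fibril-associated collagens sit on the surface of fibrils, and 3 of their 9 genes rose while 2 fell, against 4.66% and 9.11% of all genes tested. Col14a1, found on type I fibrils of dense connective tissue, read 566, 399.9, 498 and 532.5 against 202, 138 and 64.4 (log2 fold change -2.02 ± 0.34, limma adjusted p = 0.00215). Col20a1, a related chain, read 91.3, 83.7, 78.4 and 75.5 against 9.4, 14 and 22.8 (-2.42 ± 0.49, limma adjusted p = 0.00592). Both fell without overlap, and the Cre-negative libraries of Col20a1 were within 1.21 times of each other.

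Col22a1, known from junctions of muscle and tendon, read 83, 75.8, 97.3 and 72.4 against 141, 233 and 351 and rose (log2 fold change 1.46 ± 0.35, limma adjusted p = 0.0155). Col16a1 read 142.5, 177, 297 and 259.5 against 314.5, 459.6 and 544 (1.02 ± 0.30, limma adjusted p = 0.0402). Col19a1 read 191, 91.6, 99.1 and 147 against 220.5, 310.4 and 287.5 (1.09 ± 0.32, limma adjusted p = 0.0378). In each of the 3 every Cre-positive library was above every Cre-negative one. These 3 calls did not hold in every alternative. Col16a1 lost its call in 7 of 17 alternatives (adjusted p up to 0.137), among them leaving out Cre-negative 46, 48 or 77 or Cre-positive 76 or 80. Col19a1 lost it in 9 (up to 0.143), among them leaving out any library but Cre-negative 46, and Col22a1 in 3 (up to 0.0715), among them leaving out Cre-positive 76 or 80. Chains of type IX collagen, a partner of type II in cartilage, did not pass the test. Col9a1 had a log2 fold change of 0.69 (limma adjusted p = 0.203), Col9a2 of -0.94 (0.208) and Col9a3 of 1.53 (0.199). Col12a1, the most read of the fibril-associated genes that did not pass, ran from 453 to 813 and from 389.6 to 509 (log2 fold change -0.36, limma adjusted p = 0.337).

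None of the 8 anchoring, multiplexin, transmembrane and other genes passed the limma test, 3 of them had an unadjusted p under 0.05 (Col7a1, Col13a1 and Col23a1), a threshold met by 28.4% of all genes tested, edgeR called none and DESeq2 called Col13a1. Col13a1, a transmembrane chain of the neuromuscular junction, read 60.3, 17.7, 60.4 and 28.9 against 107, 92.1 and 139, with no overlap (log2 fold change 1.56 ± 0.50, limma adjusted p = 0.0554). Col23a1, also transmembrane, read 22.6, 32.5, 34.2 and 30 against 1, 6 and 15.6, again with no overlap (-2.31 ± 0.79, limma adjusted p = 0.0731). Both lay close to the threshold and some alternatives called them: DESeq2 gave Col13a1 an adjusted p of 0.0243, and without Cre-positive 80 Col23a1 had 0.0350. Col15a1 and Col18a1 are collagens with sugar chains at basement membranes. Col15a1 read 86.3, 77.8, 73 and 103 against 44.9, 65.1 and 37.4, lower without overlap (log2 fold change -0.81, limma adjusted p = 0.197). Col18a1 overlapped, with a log2 fold change of 0.16 (limma adjusted p = 0.815). Col7a1, whose chain anchors the basement membrane of skin to the tissue beneath, had -1.22 (limma adjusted p = 0.166). Col25a1, Col26a1 and Col28a1 had -0.93, -1.70 and -0.57, and no library read any of them above 33.1.

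Divided by exon length, the order of the genes changed below the first place. The length counts every base in any exon annotated for the gene in GENCODE M21, so it can be longer than any 1 transcript. It was 12426 bp for Col1a2 and 6563 bp for Col1a1, and places in the order depend on it. Col4a1 led both groups, with 170.5 ± 13.4 (SD, n = 4) normalized counts per kb of exon in Cre-negative and 332 ± 16.7 (SD, n = 3) in Cre-positive. In Cre-negative, Col14a1 (71.2 ± 10.2), Col10a1 (67.1 ± 62.0), Col4a2 (51.2 ± 7.99) and Col27a1 (50.1 ± 9.42) came next. Genes next to each other in that order overlapped within 1 SD, but Col14a1 was above Col4a2 and Col27a1 by more than 1 SD of each, and the SD of Col10a1 was nearly as large as its mean. In Cre-positive, Col6a5 (124 ± 16.5), Col4a2 (82.4 ± 16.2), Col16a1 (65.1 ± 17.2) and Col6a1 (55.2 ± 17.4) followed Col4a1. The last 3 of these overlapped within 1 SD. Col6a5 thus moved from place 7 to 2 of 43, Col14a1 from 2 to 14 and Col10a1 from 3 to 39. Col3a1 stood at 11.2 ± 4.66 and 0.791 ± 0.626, and Col6a3 at 14.8 ± 3.95 and 1.60 ± 0.780.

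**Figure D4:**
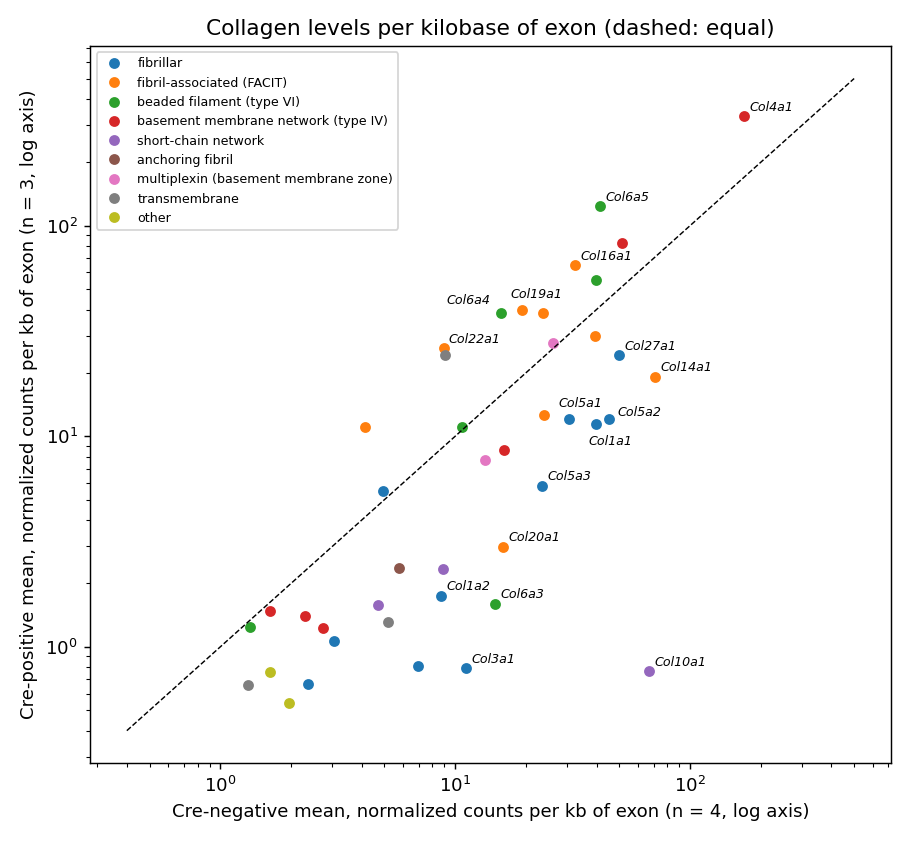
Mean level of each of the 43 collagen genes in normalized counts per kb of exon (both axes log), Cre-negative (n = 4) against Cre-positive (n = 3), colored by class, with the 17 changed genes named and a dashed line where both are equal. Col4a1 stands highest in both groups, Col6a5 above the line, and Col10a1 falls from 67.1 to 0.767.

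The Cre-negative libraries did not read all collagens with the same evenness. Their highest and lowest values differed by 31.4 times for Col2a1, 26.3 for Col8a1, 21.4 for Col24a1 and 10.0 for Col10a1. For Col4a1, Col5a1 and Col1a2 the same ratio was 1.20, 1.23 and 1.30.

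Genes that act on collagen and genes of the other basement membrane parts were counted in the same fit. Of 32 listed genes for collagen synthesis and processing, 31 passed the filter, none rose and 2 fell, with a median log2 fold change of 0.01. At an unadjusted p under 0.05, which 11.1% of all genes tested met higher and 17.3% lower, 3 were higher and 5 lower, edgeR called none higher and DESeq2 called Ppib higher. P4ha1, a catalytic subunit of the enzyme that hydroxylates collagen prolines, read 369.6, 335, 413 and 295 against 224, 140.2 and 205.5 (-0.91 ± 0.25, limma adjusted p = 0.0311). Adamts2, which trims the ends of fibrillar procollagens, read 86.3, 74.9, 143 and 48.6 against 30.3, 23 and 3.1 (-2.51 ± 0.70, limma adjusted p = 0.0313). Neither overlapped between the groups, and their calls were lost in 6 and 7 of 17 alternatives (adjusted p up to 0.110 and 0.0874). Those of P4ha1 included leaving out Cre-negative 46, 48 or 75 or Cre-positive 76, and those of Adamts2 leaving out Cre-negative 46, 48 or 75 or Cre-positive 80. Of 11 collagen receptor genes, none passed the limma test, and the median was -0.96. At an unadjusted p under 0.05, 2 were higher and 1 lower, near the 28.4% of all genes tested, edgeR called none and DESeq2 called Itgb1, a subunit shared by collagen-binding integrins, which had a limma adjusted p of 0.0523 and a log2 fold change of 0.57.

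Of the 15 other basement membrane genes, 3 rose and 1 fell, with a median of 0.38. Over all genes tested, 4.66% rose and 9.11% fell. At an unadjusted p under 0.05, 4 were higher and 3 lower, against 11.1% and 17.3% of all genes tested. Calls by edgeR were the same as by limma. DESeq2 called 4 higher, with Nid2 added, and 3 lower, with Hspg2 and Lama2 added. Lamb3 and Lama3, chains of the laminin under epithelia, rose. Lamb3 read 143, 104, 183 and 127 against 500.5, 474 and 490.0 (1.83 ± 0.26, limma adjusted p = 7.15e-04), and Lama3 297.5, 369, 261 and 216 against 750.3, 565 and 486 (1.07 ± 0.25, limma adjusted p = 0.0129). Lama3 lost its call without Cre-positive 45 (adjusted p = 0.0628). Lama4, a laminin chain of vessel membranes, read 210.3, 138, 157 and 199.5 against 256, 316 and 456 (0.94 ± 0.28, limma adjusted p = 0.0422), and its call was lost in 9 of 17 alternatives (adjusted p up to 0.161), among them leaving out any library but Cre-positive 45. Nid1, which links the laminin and type IV networks, fell. It read 509, 266, 250.4 and 290.5 against 7.3, 9 and 46.7 (-4.32 ± 0.56, limma adjusted p = 3.86e-04).

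Depth was similar in the 7 libraries, with 9815958 to 12599078 reads per library in Cre-negative and 11383465 to 11623062 in Cre-positive. Cre-positive libraries held fewer genes with at least 10 reads, 17169 to 18014 against 19417 to 20467, and the part of this in the collagen results was not tested. Ikzf1 read 1119 to 1219 in Cre-negative and 1310.3 to 1829 in Cre-positive, summed over the whole gene, which does not check the labels because the floxed exon is not given. The mTEC markers Epcam (3883 to 5098.5 against 5598 to 6771), Cd74, Krt8 and Foxn1 were read in every library, and Ccl21a in none. Since the counting tool is not given, a missing Ccl21a transcript cannot be told from Ccl21a reads left out in counting. Of the 9 mTEC markers tested, Krt5 and Krt14 rose and Aire and Foxn1 fell. Krt14 read 1319, 1162, 2269 and 1809 against 3897, 4006 and 5880.5 (1.51 ± 0.23, limma adjusted p = 0.00132). The call of Krt5 was lost in 10 of 17 alternatives, among them edgeR and leaving out any library but Cre-negative 48 (adjusted p up to 0.197). That of Aire was lost in 5, among them leaving out Cre-negative 75 or 77 or Cre-positive 45 or 76 (up to 0.134). Y-linked genes summed to 3938 normalized counts in Cre-negative 48 and to at most 1 in each other library. Cre-negative 48 thus held male cells, so sex was not the same in all Cre-negative libraries. The covariate for Y-linked reads mostly sets Cre-negative 48 apart. The sum was 0 in every Cre-positive library and 0.8 or more in every Cre-negative one, so the covariate is also partly aligned with the groups. Without Cre-negative 48, 14 collagen genes were called, 10 lower and 4 higher.

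Markers of cells that make collagen moved with these genes in part. The shares to set beside their counts are 9.11% lower and 4.66% higher over all genes tested. Bone markers summed to 491 to 966 normalized counts in Cre-negative and 165 to 266 in Cre-positive, and Runx2, Ibsp and Bglap fell among 6. Ibsp lost its call in 6 of 17 alternatives (adjusted p up to 0.147), edgeR and omitting Cre-negative 75 or 77 or Cre-positive 76 or 80 among them, and Bglap in 3 (up to 0.0710), when Cre-negative 77 or Cre-positive 45 or 76 was left out. The regulator Runx2 read 152.5, 95.5, 87.4 and 107.5 against 4.2, 23 and 7.3 (-3.43 ± 0.58, limma adjusted p = 0.00224). Cartilage markers summed to 2071 to 2726 and 2054 to 3343, a sum made mostly of Sox9. Sox9 ran from 1480.1 to 1680.1 and from 1657 to 3012, higher but with overlap (log2 fold change 0.58 ± 0.20, limma adjusted p = 0.0731). DESeq2 called Sox9 higher and Acan, Comp and Hapln1 lower. Over the 9 genes, 7 had a log2 fold change below 0 and 2 above, the median was -1.34, and Acan and Hapln1 fell. Acan lost its call in 7 of 17 alternatives (adjusted p up to 0.111), limma-voom and leaving out Cre-negative 48, 75 or 77 or Cre-positive 76 or 80 among them. Hapln1, the link protein of cartilage matrix, read 157, 80.8, 46.8 and 83.7 against 0, 0 and 2.1 (-5.87 ± 0.75, limma adjusted p = 3.77e-04). Fibroblast markers summed to 1736 to 2026 and 1329 to 1730.4, and Mfap5, Fap and Thy1 fell among the 11 of 12 that passed the filter. Mfap5, a protein of elastic microfibrils, read 210.3, 339.8, 546 and 591 against 46, 22 and 44.6 (-3.41 ± 0.41, limma adjusted p = 2.51e-04). Thy1 lost its call in 9 of 17 alternatives (adjusted p up to 0.134), edgeR, DESeq2 and leaving out any library but Cre-positive 76 among them. Thymocytes carry Thy1 as well, so its fall cannot be assigned to fibroblasts. It is part of the fibroblast sum, with group means of 282 in Cre-negative and 94.8 in Cre-positive. The fibroblast marker Pdgfra was near 0, at 9 to 21.7 and 3.1 to 23. Dcn went the other way and was higher in every Cre-positive library, without passing the test. It ran from 562 to 890.4 and from 989 to 1171 (0.53 ± 0.20, limma adjusted p = 0.0968). Over the 11 fibroblast genes tested, 8 had a log2 fold change below 0 and 3 above, with a median of -0.32.

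Pericyte markers summed to 5034 to 6517 and 10399 to 10842, a sum made mostly of Rgs5, which rose. It read 3153, 4033, 4050.2 and 2806 against 8758, 8932 and 8222 (1.32 ± 0.16, limma adjusted p = 3.02e-04). Of the other 7 genes, Myh11 ran from 809.7 to 1632 and from 1303 to 1692, Acta2 from 376 to 542 and from 198 to 468, and Pdgfrb from 109 to 183 and from 86.7 to 134. Cspg4 and Notch3 read at most 85.1 in any library, Abcc9 at most 72.9 and Kcnj8 at most 15.1. Of these 7, 6 passed the filter, and none was called by limma, edgeR or DESeq2 or had an unadjusted limma p under 0.05. Endothelial markers summed to 411.5 to 528 and 426 to 558 and T cell markers to 525 to 1001 and 429.7 to 1301, with none of 8 and none of 6 passing the limma test, edgeR or DESeq2, and 1 and 0 at an unadjusted p under 0.05. The smallest exact two-sided permutation p that 4 against 3 libraries can give is 0.0571, which the bone, fibroblast and pericyte sums reached. The part of these cell types in the collagen results was not tested.

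The library numbers fall into 45 to 48 and 75 to 80, which the labels do not explain. Since 16 of the 17 changed collagen genes showed no overlap over all 7 libraries, they cannot overlap within a range either. Within 45 to 48, all 17 changed collagen genes lay outside the Cre-negative range in the called direction, and within 75 to 80, 16 did, with Col1a1 the exception. Over all 17 alternatives, 11 calls held in every one: Col1a2, Col3a1, Col5a1, Col5a2, Col5a3, Col6a3, Col14a1, Col20a1 and Col27a1 lower, and Col4a1 and Col6a5 higher. Scaling by library totals shifted the median over all genes tested (log2 fold change) from -0.10 to -0.29 and the calls over all genes from 1066 higher and 2084 lower to 583 and 2629. Of the collagen genes, 4 were then called higher and 11 lower. In the authors' deposited table, 36 collagen genes had an adjusted p, and 7 of them were called higher and 12 lower in Cre-positive. Col1a1 was not called there (deposited adjusted p = 0.185), and Col19a1 had no adjusted p. The share of all genes called by the authors was not counted. DESeq2 on the recovered reads called 1475 genes higher and 2839 lower among 24571 with an adjusted p.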

How the data were processed

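STAR 2.7.9a, DESeq2 and the build GRCm39 are named in the submitters' processing notes. Gene coordinates in the deposited table equal GENCODE M21 (GRCm38) for 95.2% of shared genes and 42 of 43 collagen genes, so positions are on GRCm38. No source used here names the counting tool or whether it used strand, and 28 collagen genes overlap another gene. Per the file headers, the authors deposited normalized counts (a signal: counts divided by a size factor, with 1 decimal), log2 fold changes, p-values and adjusted p-values. Log2 fold changes here are differences between group means of log2(normalized count + 1). The added 1 pulls changes of low genes toward 0. A single library near 0 can also make the value larger than the ratio of group means gives. Col6a6 had -0.97 with group means of 12.25 in Cre-negative and 11.4 in Cre-positive, where library 45 read 0.

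The main test was limma 3.58.1 with an intensity trend on genes with a mean of at least 5, Benjamini-Hochberg adjusted, called below 0.05. It was also run on simulated reads drawn independently for each gene and library, and no result of that run is used here. Whole reads were recovered from the signal (100% of values whole within 0.0501) for edgeR 4.0.16, DESeq2 1.42.0 and limma-voom in R 4.3.3. The alternatives were those 3, pseudocounts of 0.5 and 5, no filter, a mean of at least 20, library total scaling, a term for number range, a Y-linked covariate, and leaving out each library. Values are given for all changed collagen genes, Col1a1, Col1a2, Col2a1, Col3a1 and type IV. Changed genes of other lists are named, with library values for those of the pathway lists and, chosen after values were seen, for the gene of smallest adjusted p in each marker list. Members and lists were chosen with earlier results of these data known.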

Additional observations from a re-analysis of the deposited data

Results flagged for a closer look

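Among the 43 collagen genes, the 4 Cre-negative libraries were examined for a library far from the other 3, by the gap to its nearest neighbour over the whole range (Dixon's 95% critical value). Chance marks about 1 in 20 groups, and 2 of 43 were marked. Col18a1 read 87.4 in Cre-negative 75, below the 205 to 229 of the other 3 (gap over range 0.830). Col4a6 read 33.1 in Cre-negative 77, above the 5.9 to 6.7 of the other 3 (gap over range 0.971). Neither gene passed the test between the groups.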

How the results depend on the processing

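No paired analysis was possible because the groups share no replicate numbers. Against 17 collagen genes called, 6 higher and 11 lower, leaving out single libraries gave 13 to 17, with 2 to 6 higher and 10 to 11 lower. The higher count was 3 without Cre-positive 76 and 2 without Cre-positive 80, and it was 2 with the Y-linked covariate. DESeq2 called 20 collagen genes. Of the pathway genes, 6 were called (3 higher, 3 lower), and leaving out single libraries gave 3 to 5 (2 to 3 higher, 1 to 3 lower). DESeq2 called 11 of them (6 higher, 5 lower), library total scaling 5 lower, the number range term 6 higher and the Y-linked covariate 1 lower. Over all genes, the Y-linked covariate called 1909 and leaving out Cre-negative 46 called 1969, against 3150. Over the collagen log2 fold changes, 665 of the alternative values kept direction and call, 30 lost the call, 9 gained it and 13 changed sign, the last all in genes that did not pass the test. Col11a2 turned to -0.0421 with library total scaling, -0.0375 with the Y-linked covariate and -0.0884 without Cre-positive 76 (range over left-out libraries -0.0884 to 0.4413). Col18a1 turned to -0.0423 with library total scaling, -0.160 without Cre-negative 75 and -0.0219 without Cre-positive 45 (range -0.160 to 0.308). Col6a2 turned to 0.0561 with edgeR, 0.0529 with DESeq2, 0.306 without Cre-negative 75 and 0.878 without Cre-positive 80 (range -0.746 to 0.878). Without Cre-positive 45, Col4a6 turned to 0.637 (range -1.74 to 0.637) and Col6a6 to 0.344 (range -2.06 to 0.344), and without Cre-negative 46, Col4a3 turned to 0.0773 (range -0.874 to 0.0773). Nt5dc1 turned to 0.0880 with the Y-linked covariate, 0.0403 without Cre-negative 48, 0.00187 without Cre-negative 75 and 0.0592 without Cre-positive 80 (range -0.323 to 0.0592). Except where fewer libraries were fitted, the cause was not tested.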

Other observations

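Some collagens are built from chains of different genes. The ratio of chain levels per kb was taken in each library for 3 pairs, chosen after the values were seen. These are ratios of RNA and do not give the make-up of the assembled collagen. Ratios are log2 of the level plus 1 normalized count, and p-values are from two-sided exact permutation tests, with 0.0571 the smallest possible. Exon length shifts the ratio of a pair by the same amount in every library. It therefore bears on how high a ratio stands but not on the groups. The log2 ratio of Col4a2 to Col4a1 was -1.74 ± 0.19 (SD, n = 4) in Cre-negative and -2.03 ± 0.37 (SD, n = 3) in Cre-positive (exact p = 0.343, adjusted over the 3 pairs 0.514). Col6a3 to Col6a1 gave -0.48, -0.95, -2.41 and -1.70 in Cre-negative and -6.18, -5.27 and -3.87 in Cre-positive, without overlap (exact p = 0.0571, adjusted 0.171). Col1a2 to Col1a1 gave -2.10 ± 0.43 (SD, n = 4) and -1.99 ± 1.93 (SD, n = 3) (exact p = 0.914), with Cre-positive 80 apart at 0.23.

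Several collagen genes are neighbours in the genome. Col3a1 and Col5a2, both lower, lie 24614 bp apart on chromosome 1. Col9a1 (log2 fold change 0.69, not called) and Col19a1 (1.09, higher) lie 9205 bp apart on the same chromosome. Col6a6, Col6a5 and Col6a4 follow each other on chromosome 9 with gaps of 27917 and 28810 bp, and of these Col6a5 and Col6a4 rose. Col4a4 and Col4a3 start 71 bp apart and Col4a6 and Col4a5 1308 bp apart, and none of these 4 passed the test.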
